A study of Mus musculus with 3 samples.

Results

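The comparison described here set pancreatic CD45+ cells taken 7 days after whole β-glucan particles (WGP) against those taken 3 days after. WGP are hollow particles of yeast cell wall from Saccharomyces cerevisiae. Mice were male and female C57BL/6J, 6 to 8 weeks old. WGP mice received a single intraperitoneal 1 mg dose, and control mice received sterile PBS. The groups were 3-day WGP, 7-day WGP and a PBS control, with 1 single-cell library each (10x Genomics 3′ chemistry, live CD45+ sorted cells). How many mice went into a library is not given in the sources used here. A barcode, which stands for a cell, was kept when it held at least 1000 unique molecular identifiers (UMIs, each counting 1 captured RNA molecule) and at most 30% of them in mitochondrial genes. This left 9053 barcodes in the WGP libraries of 14302 in all 3 libraries, with 4879 at 3 days, 4174 at 7 days and 5249 for PBS. 3 gates were read on UMI counts. The myeloid gate required at least 1 UMI of Csf1r, the receptor for macrophage colony-stimulating factor, and no UMI of Cd3e or Cd79a. The T gate required at least 2 UMIs over Cd3d, Cd3e and Cd3g, which encode chains of the T cell receptor complex. The B gate required at least 3 UMIs over Cd79a and Cd79b, the signalling chains of the B cell receptor.

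β-glucan is bound on myeloid cells mainly by dectin-1, a C-type lectin that signals through Syk and Card9, and by complement receptor 3. Cells of the monocyte and macrophage lineage that have met β-glucan can respond more strongly to a later stimulus, which is called trained immunity. Macrophages that receive interferon-γ from T cells or NK cells transcribe chemokines such as Cxcl9 and Cxcl10, GTPases of the Gbp and Irg families, and the genes of antigen presentation. Macrophages resident in tissue carry other genes, such as Lyve1, Timd4, Folr2 and Mrc1.

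With 1 library per group there was no replicate check of any difference between the 2 days, so no test was made and both values are given. Intervals are 95% intervals, exact Poisson for levels and exact binomial for shares, and cover counting error only. Levels are UMIs summed over the barcodes of a gate in a library and given as counts per 1000000 UMIs of that sum (CPM). The ratio is the log2 of the 7-day CPM over the 3-day CPM after adding 10 CPM to each. A gene was measured in a gate when 1 of the 2 libraries had at least 20 CPM, and it is called higher or lower at 7 days when the ratio was at least 1 or at most -1. Over the genes measured, the counting interval of the ratio reached at most 0.16 on either side in the myeloid gate, and 0.25 and 0.21 in the T and B gates read over barcodes of a single lineage.

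The median barcode held 5754 UMIs and 1852 genes at 3 days, and 8077 UMIs and 2351 genes at 7 days. Both libraries held barcodes with UMIs of Xist and barcodes with UMIs of Y-linked genes, 479 and 2510 at 3 days and 1208 and 1865 at 7 days. So each held more than 1 mouse, and the mix of sexes differed between the days. Each main result was therefore also read within Xist barcodes and within Y barcodes, which are strata of a library and not replicates. At 3 days 1835 barcodes held neither kind of UMI and 55 held both, and at 7 days 1028 and 73. These barcodes lie outside the strata. The 2 WGP libraries shared 5 barcode sequences. Barcodes with UMIs of 2 or more lineages (any 2 of Csf1r at 1 UMI, the CD3 genes at 2 and the Cd79 genes at 3) numbered 418 at 3 days, 8.57% of the library, and 157 at 7 days, 3.76%. In the T gate, 328 of 1438 barcodes (22.8%) at 3 days also passed the B gate, against 46 of 831 (5.54%) at 7 days. Those 328 barcodes held a median of 24444 UMIs, and Igkc, the κ light chain constant gene, made up 22.3% of their UMIs. Results in the T and B gates are therefore given first for barcodes of a single lineage, with the value over the whole gate beside them. Leaving out these barcodes was chosen after the data were seen.

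A larger share of barcodes lay in the myeloid gate at 7 days than at 3 days, and smaller shares lay in the T and B gates. The myeloid gate held 869 of 4879 barcodes at 3 days (17.8%, 16.7 to 18.9) and 1590 of 4174 at 7 days (38.1%, 36.6 to 39.6), a log2 ratio of shares of 1.10. The PBS library had 19.4%, from 46.8% of its Xist barcodes and 0.86% of its Y barcodes. It lay close to the 3-day level in the total only and not within either stratum. The T gate held 29.5% of barcodes at 3 days (28.2 to 30.8) and 19.9% at 7 days (18.7 to 21.2), with 21.6% in PBS. The B gate held 32.2% at 3 days (30.9 to 33.6) and 16.2% at 7 days (15.1 to 17.4), with 48.1% in PBS. None of the 3 pairs of intervals overlapped. A further 27.4% of barcodes passed no gate in each WGP library, and 19.4% in PBS. In bulk sums and in shares of barcodes, fewer cells of a type and less RNA per cell cannot be told apart, and a share that is larger makes the others smaller.

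The direction was the same in both sex-linked strata, with sizes that differed. Among Xist barcodes the myeloid gate held 87 of 479 (18.2%) at 3 days and 603 of 1208 (49.9%) at 7 days, and among Y barcodes 539 of 2510 (21.5%) and 657 of 1865 (35.2%). The log2 ratio of shares was 1.46 in Xist and 0.71 in Y barcodes. The T gate had log2 ratios of -0.88 and -0.45 in the same order, and the B gate -1.68 and -0.84. Over barcodes of a single lineage, the myeloid ratio was 1.02, the T ratio -0.42 and the B ratio -0.87. Within Y barcodes of a single lineage the T ratio was -0.16, with an interval of -0.34 to 0.02.

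**Figure D1:**
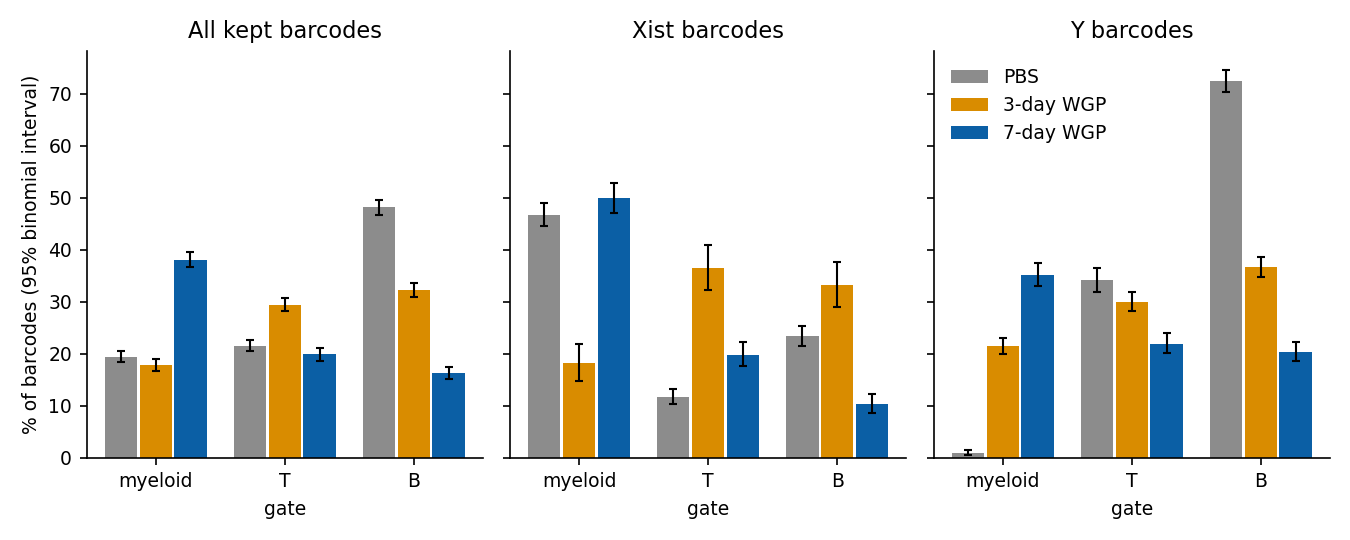
Share of kept barcodes (%) in the myeloid, T and B gates in the PBS (grey), 3-day WGP (orange) and 7-day WGP (blue) libraries, for all kept barcodes, Xist barcodes and Y barcodes, with 95% binomial intervals as error bars. The myeloid bar stands higher at 7 days than at 3 days in each panel, 38.1% against 17.8% over all kept barcodes.

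In the myeloid gate, interferon-γ response genes, chemokine ligands of CXCR3 and antigen presentation genes were higher at 7 days, and genes of resident macrophages were lower. Of 5893 genes measured, 73 were higher (1.24%) and 130 lower (2.21%), and the median ratio over all of them was -0.06. Leaving out barcodes of 2 or more lineages gave 74 higher (1.26%) and 131 lower (2.23%) of 5881. Of the genes called, 62 higher and 85 lower had a ratio of at least 0.5 in that direction in both strata. The gate held monocyte and macrophage markers at 25370 CPM summed at 3 days and 27475 at 7 days over 7 genes. B cell markers summed to 2.01 and 2.13 CPM, and T cell markers to 6.70 and 5.91 CPM. Neutrophil markers (S100a8, S100a9, Csf3r, Retnlg and Cxcr2) summed to 3470 CPM at 3 days and 515 at 7 days, with 1352 in PBS. Erythroid markers summed to 1145 and 2287 CPM and NK cell markers to 45.0 and 88.3 CPM. Conventional dendritic cell markers (Flt3, Zbtb46, Xcr1, Clec9a, Cd209a and Ccr7) summed to 46.4 CPM at 3 days and 89.6 at 7 days, with 170 in PBS. None of the markers of these kinds was at 0, and their part in the results was not tested.

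Cxcl9 and Cxcl10 encode neighbouring chemokines that draw in T and NK cells through CXCR3. Cxcl10 (chr5:92346638-92348889, GRCm38, ENSMUSG00000034855) had 41.5 CPM in PBS, 44.7 at 3 days (41.0 to 48.6) and 932 at 7 days (918 to 946), a ratio of 4.11. Cxcl9 (chr5:92321347-92328079, ENSMUSG00000029417) had 69.9, 87.6 and 1269 CPM in the same order, a ratio of 3.71. For both genes the 3-day library lay close to PBS over all barcodes, and the 7-day library stood apart. In the Xist and Y strata the ratio was 3.92 and 4.62 for Cxcl10 and 2.88 and 4.03 for Cxcl9. Ccl5, a chemokine for T cells and monocytes, had 228 CPM at 3 days and 1750 at 7 days, a ratio of 2.88, with 1.36 in Xist and 3.51 in Y barcodes. RNA outside cells, read from barcodes of at most 100 UMIs, also held more of these transcripts at 7 days, with Cxcl9 at 39.6 and 558 CPM, Cxcl10 at 32.5 and 433, and Ccl5 at 652 and 1768. With the free RNA subtracted, the ratio was 3.71 for Cxcl9 and 4.11 for Cxcl10.

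The other genes higher at 7 days under the naming rule were mostly interferon-induced. Ly6i and Ly6a, members of the Ly6 family of surface proteins, went from 57.2 to 654 CPM and from 63.5 to 585 CPM, ratios of 3.30 and 3.02. Serpina3g, a serine protease inhibitor, had 15.4 and 154 CPM. Iigp1 and Gbp4, GTPases that act on vacuoles of intracellular microbes, had 38.1 and 299 CPM and 19.8 and 154 CPM. Socs1, which encodes an inhibitor of cytokine signalling and is itself induced by interferon, had 6.62 and 95.1 CPM, a ratio of 2.66. Fam26f had 85.7 and 365 CPM. Procr, the endothelial protein C receptor gene, had 9.47 and 59.4 CPM, a ratio of 1.83. Nos2 (chr11:78920787-78960254), which encodes inducible nitric oxide synthase, had 0.0899 CPM in PBS, 4.02 at 3 days and 64.7 at 7 days, from 48 UMIs in 11 barcodes at 3 days and 1182 UMIs in 192 barcodes at 7 days.

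Promoter windows of genes higher in the myeloid gate were read for 2 short motifs of the interferon pathways. GAAANNGAAA, or TTTCNNTTTC on the other strand, is the core of the interferon-stimulated response element (ISRE), bound by IRF factors. TTCNNNGAA, which reads the same on both strands, is the γ-activated site (GAS) of genes induced by interferon-γ. Windows were the 250 bases before each start and 50 after, from RefSeq for GRCm38.p6, and overlapping matches were each counted. Windows of 6 interferon-induced genes are shown, 5 with a match and Cxcl9 without one, as examples picked for their motifs. A second start of Irf1 and the window of Procr, which also held no match, are not shown. Each sequence gives the 250 bases before the start on the strand of the gene, with a match in capitals.
Cxcl10, chr5:92348890-92349139, minus strand, ISRE: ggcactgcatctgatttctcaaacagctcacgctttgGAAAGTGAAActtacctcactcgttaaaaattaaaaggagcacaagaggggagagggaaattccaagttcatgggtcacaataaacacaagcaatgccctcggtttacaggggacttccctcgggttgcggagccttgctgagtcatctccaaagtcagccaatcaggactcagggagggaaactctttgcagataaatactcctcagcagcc
Cxcl9, chr5:92328080-92328329, minus strand, no match: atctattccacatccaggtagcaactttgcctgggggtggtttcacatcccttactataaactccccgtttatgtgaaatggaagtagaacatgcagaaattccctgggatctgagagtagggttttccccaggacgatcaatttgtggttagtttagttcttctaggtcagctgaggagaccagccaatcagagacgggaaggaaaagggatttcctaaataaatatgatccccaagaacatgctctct
Socs1, chr16:10785537-10785786, minus strand, 2 overlapping ISRE: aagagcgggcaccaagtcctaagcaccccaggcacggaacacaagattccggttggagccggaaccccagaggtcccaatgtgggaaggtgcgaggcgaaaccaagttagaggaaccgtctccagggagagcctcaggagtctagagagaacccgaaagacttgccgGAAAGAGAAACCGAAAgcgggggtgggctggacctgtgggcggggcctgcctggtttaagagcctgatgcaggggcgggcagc
Gbp2, chr3:142620413-142620662, plus strand, ISRE on the other strand: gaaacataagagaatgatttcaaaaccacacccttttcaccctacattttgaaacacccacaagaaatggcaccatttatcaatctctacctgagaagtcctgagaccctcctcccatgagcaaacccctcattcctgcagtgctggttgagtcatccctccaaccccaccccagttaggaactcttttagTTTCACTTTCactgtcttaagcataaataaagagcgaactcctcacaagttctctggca
Irf1, chr11:53769764-53770013, plus strand, GAS: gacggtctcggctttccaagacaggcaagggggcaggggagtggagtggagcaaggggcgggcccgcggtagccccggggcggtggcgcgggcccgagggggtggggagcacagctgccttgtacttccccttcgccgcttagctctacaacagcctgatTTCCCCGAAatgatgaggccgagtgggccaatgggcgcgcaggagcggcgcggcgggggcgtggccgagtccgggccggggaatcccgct
Serpina3g, chr12:104235897-104236146, plus strand, GAS: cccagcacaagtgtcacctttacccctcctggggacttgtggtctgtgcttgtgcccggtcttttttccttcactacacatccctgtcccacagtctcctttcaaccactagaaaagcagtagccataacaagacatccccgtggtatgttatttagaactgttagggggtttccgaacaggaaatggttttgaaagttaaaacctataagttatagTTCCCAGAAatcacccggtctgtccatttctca

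The ISRE letters stood in the windows of 12 of 50 matched genes higher at 7 days (24%; 50 of 73 had a window) and of 5 of 103 matched genes lower at 7 days (4.85%; 103 of 130 had one). Over all measured myeloid genes with a window the share was 4.93% (232 of 4704), and over all genes with a window 3.99%. Of all 32851 windows, 3.44% held it. The GAS letters stood in 9 of 50 higher genes (18%) and 9 of 103 lower genes (8.74%), against 8.1% of measured genes and 9.55% of all genes. Of the 28 interferon-γ response genes with a window, 14 (50%) held ISRE letters and 12 (42.9%) GAS letters. A match describes the letters in these windows and is not a binding site that was measured here.

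The list of interferon-γ response genes had calls in 1 direction in the myeloid gate. Of 38 members measured (41 in the table), 21 were higher and 0 lower, with a median ratio of 1.03 (1.01 in Xist and 1.15 in Y barcodes), against 1.24% higher over all genes. Gbp2 had 398 and 974 CPM (ratio 1.27), and Gbp5 and Igtp had ratios of 1.80 and 1.81. Irf1, a transcription factor of the pathway, had 147 and 323 CPM. Genes induced mainly by type I interferon were less often called, with 2 of 33 higher and a median of 0.32. The difference between the 2 lists was not tested. Isg15, a ubiquitin-like protein of that list, had 85.4 and 214 CPM, a ratio of 1.23.

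Genes of antigen presentation by MHC class II were higher at 7 days in 9 of 12 members measured, with a median of 1.17 and 0 lower. H2-Eb1 had 4125 CPM in PBS, 1857 at 3 days and 4860 at 7 days, a ratio of 1.38. H2-Ab1 had 4223, 2406 and 5659 CPM, and Cd74, the invariant chain, 7353, 3979 and 9412 CPM. For these 3 genes the 3-day library was the low one over all barcodes and PBS lay near 7 days. The PBS gate held 954 Xist and 15 Y barcodes and the 3-day gate 87 and 539. That order therefore also compares different mixes of the strata. Conventional dendritic cell markers in the gate were lowest at 3 days too (46.4 CPM, with 170 in PBS and 89.6 at 7 days). Their part in the MHC class II levels was not tested. Ciita, the activator of MHC class II transcription and also in the interferon-γ list, had 74.7 and 163 CPM, and Cd40, a costimulatory receptor, 39.1 and 104 CPM. The ratios were smaller in Xist than in Y barcodes, with list medians of 0.44 and 1.43, and H2-Eb1 at 0.33 and 1.66. Of the MHC class I list, 4 of 21 were higher with a median of 0.62. These included Psmb8 (462 and 935 CPM) and Psmb9 of the immunoproteasome, while B2m, the light chain of class I molecules, had 5226 and 4535 CPM, a ratio of -0.20.

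Genes of Ly6C-high monocytes, the inflammatory monocytes of blood, were called in 3 of 23 members, each higher, with a median of 0.20. Ly6c2 had 266 and 884 CPM (ratio 1.69, 1.04 in Xist and 1.99 in Y barcodes), Plac8 1004 and 2741 CPM (1.44), and Ms4a4c 177 and 409 CPM (1.16). Ccr2, the receptor that brings these monocytes to tissue, had 537 and 744 CPM, a ratio of 0.46 and under the size. Inflammatory cytokines had 1 higher (Il27, at 6.54 and 25.4 CPM) and 1 lower (Csf1) of 10 measured. Il1b had 154 CPM in PBS, 928 at 3 days and 1516 at 7 days, a ratio of 0.70, and Tnf 119 and 68.6 CPM, a ratio of -0.71, so neither was called. Of 25 NF-κB genes, 3 were higher (Traf1, Bcl3 and Ptgs2 lay between 1.02 and 1.17), with a median of 0.34. Hif1a, the oxygen-sensing transcription factor, had 197 and 424 CPM, the single gene called of 26 in the glycolysis and hypoxia list, whose median was 0.11. In the oxidant, immediate early and heat shock, and cell cycle lists 0 genes were called in either direction, of 26, 22 and 10 measured. In the glucan sensing list, 0 were higher and 1 lower (Cd36, a scavenger receptor, at 388 and 126 CPM) of 16. Its median was -0.01 and lay above 0 with TMM and median-of-ratios factors. Clec7a, the gene of dectin-1, was not found by that symbol among the genes of the matrices, so these counts do not cover it.

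Genes of resident macrophages were lower at 7 days in 14 of 25 members measured (29 in the table), with a median of -1.20, against 2.21% lower over all genes, and 0 were higher. The median was -1.49 in Xist and -1.03 in Y barcodes. Lyve1, a hyaluronan receptor, had 252 CPM in PBS, 105 at 3 days and 9.30 at 7 days, a ratio of -2.57. Folr2, a folate receptor, had 495, 165 and 32.7 CPM, Mrc1, the mannose receptor, 900, 263 and 69.2 CPM, and Cd163, the haemoglobin scavenger receptor, 185, 44.6 and 4.87 CPM. Timd4, a phosphatidylserine receptor, had 97.8, 41.2 and 6.84 CPM. Pf4, a chemokine of platelets and macrophages, had 1443, 508 and 68.8 CPM, and Retnla, an interleukin-4-induced gene, 1656, 206 and 45.4 CPM. Retnla rested on few barcodes, with 50% of its UMIs in 4 at 3 days and 2 at 7 days. For these 7 genes the order over all barcodes was PBS, then 3 days, then 7 days. The PBS myeloid gate was almost wholly of Xist barcodes, though the PBS library as a whole was not. In Xist barcodes alone the 3-day levels of Lyve1 (434 CPM) and Timd4 (221 CPM) stood above PBS. The 7-day levels of all 7 stayed lowest there. Cd5l, a secreted macrophage protein, had 32.0 CPM in PBS, 366 at 3 days and 50.2 at 7 days, so there the 3-day library stood above the others.

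A further set was high at 3 days against both other libraries when read over all barcodes. Saa3, an acute phase protein, had 205 CPM in PBS, 12200 at 3 days and 4379 at 7 days, a ratio of -1.48. Fn1, fibronectin, had 733, 3560 and 1030 CPM, a ratio of -1.78. Spp1, osteopontin, had 131, 340 and 60.9 CPM, and Arg1 (chr10:24915221-24927484), arginase 1, 17.1, 838 and 418 CPM. Arg1, at a ratio of -0.99, did not reach the size. In the list of arginase, repair and lipid genes, 14 of 31 were lower and 1 higher, with a median of -0.93. This list did not keep 1 direction across strata, with a median of 0.29 in Xist and -1.14 in Y barcodes. Arg1 had ratios of 2.06 and -1.49 in the same order, and Spp1 of 2.17 and -3.01. In Xist barcodes Spp1 stood at 5.005 CPM at 3 days and 57.5 at 7 days, both under PBS, and Arg1 at 127 and 562 CPM. The PBS myeloid gate was almost wholly of Xist barcodes, 954 of 1020, with 15 Y barcodes, so its levels stand mostly for that stratum.

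The largest lower ratios included neutrophil granule genes. S100a8 had 533 CPM in PBS, 1560 at 3 days and 195 at 7 days (ratio -2.94), and its partner S100a9 had 1684 and 216 CPM at the 2 WGP days. S100a8 UMIs stood in 333 of 869 barcodes at 3 days and 311 of 1590 at 7 days, and 10 and 12 barcodes held 50% of them. Ngp had 86.4 and 0.27 CPM and Camp 77.8 and 0.82 CPM, but for each of these 2 a single barcode held 50% of the 3-day UMIs. The same held for Cxcl13, a chemokine for B cells and a gene of large peritoneal macrophages, at 165 and 8.75 CPM. Prg4, lubricin, from the same macrophages, had 160 and 27.4 CPM. Igkc, which macrophages do not transcribe, had 182 and 29.3 CPM in the gate and 53928 and 17508 CPM in the free RNA. Among chemokines, 3 were higher and 6 lower of 18, with a median of -0.76 (0.12 in Xist and -0.82 in Y barcodes). Cxcl1 and Cxcl3, ligands of the neutrophil receptor CXCR2, had 73.1 and 20.1 CPM and 38.6 and 4.54 CPM, and Ccl8 and Ccl24 were lower too, at -1.89 and -1.26.

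**Figure D2:**
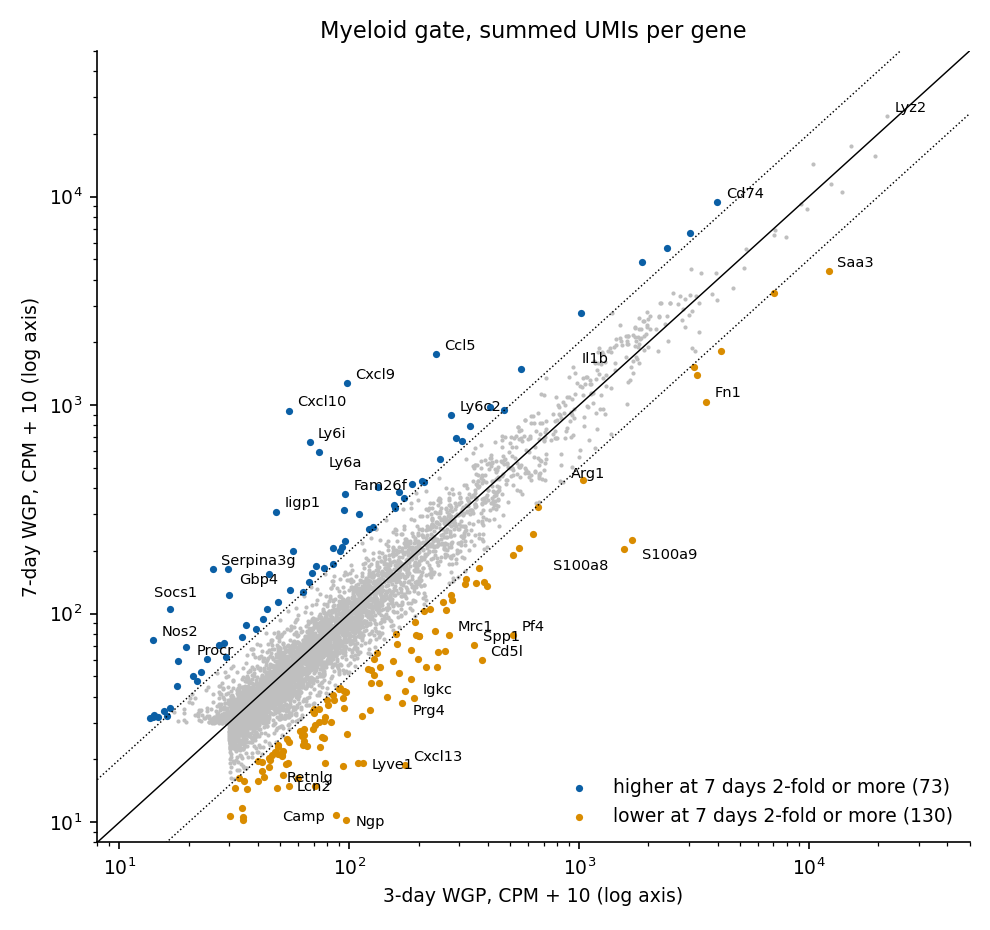
CPM plus 10 of each gene measured in the myeloid gate at 3 days (x) and 7 days (y), both on log axes, with the solid line at equal levels and the dotted lines at 2-fold after adding 10 CPM. The 73 higher genes, led by Cxcl10 and Cxcl9, lie above the upper dotted line and the 130 lower genes below the lower one.

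**Figure D3:**
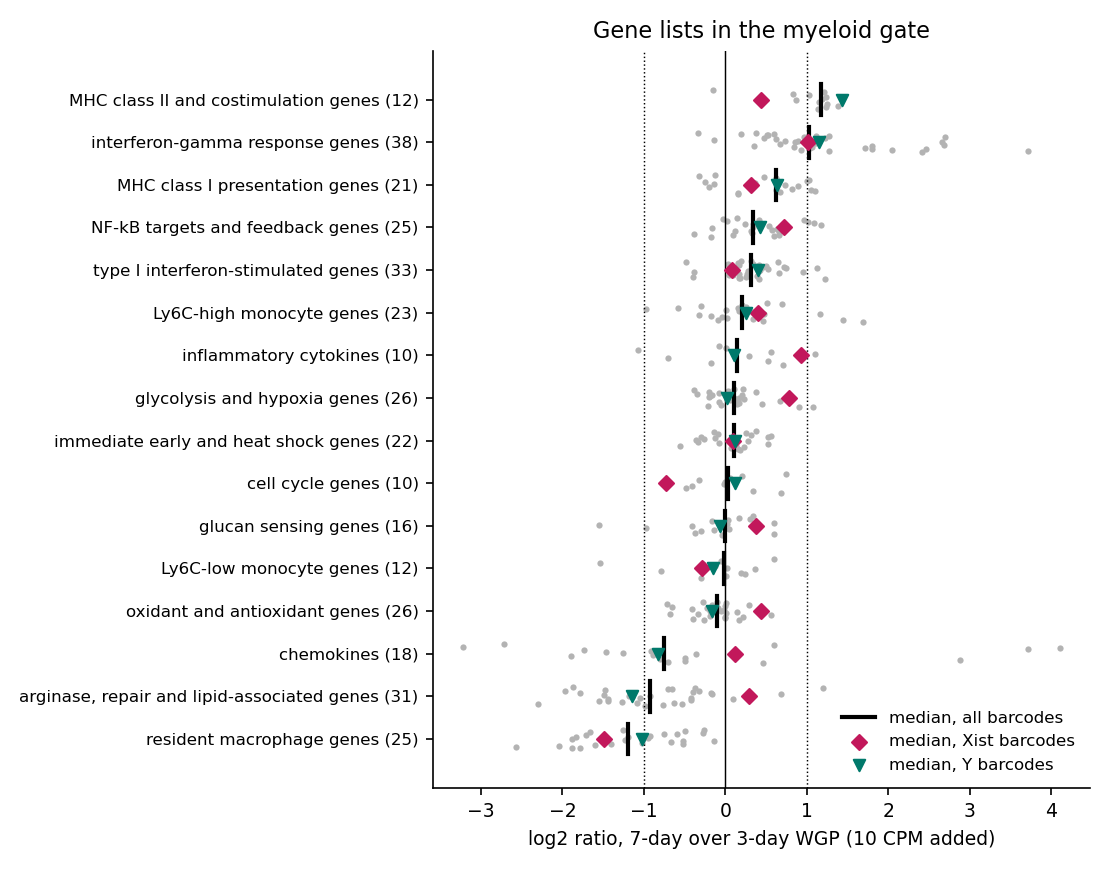
Log2 ratio of 7-day over 3-day WGP (10 CPM added) for the members of each list in the myeloid gate (grey points, with the number measured in brackets), with the list median over all barcodes (black bar), Xist barcodes (diamond) and Y barcodes (triangle); dotted lines mark a ratio of 1 and -1. The interferon-γ response and MHC class II medians lie at 1.03 and 1.17 and the resident macrophage median at -1.20, and the strata of the arginase and repair list lie on opposite sides of 0.

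The shares of barcodes with a UMI moved as the levels did. To set the libraries at equal depth, each barcode was thinned to 1000 UMIs, and the same share in B gate barcodes served as a background. Among myeloid barcodes of a single lineage, Cxcl9 was seen in 4.30% at 3 days and 29.8% at 7 days after thinning, with 0 of 1195 (up to 0.308%) and 0.85% in the B gate, and in 13.01% and 49.3% before thinning. Nos2 was seen in 0.23% and 3.19%, and Ccr2 in 25.4% and 43.2%. In the other direction, Mrc1 was seen in 17.4% and 5.10%, Fn1 in 51.3% and 28.9%, and Pf4 in 19.5% and 2.87%. Each of these 7-day myeloid shares lay above its B gate share, which was at most 1.53% for these genes. Il1b was seen in 30.4% of barcodes at 3 days and 50.8% at 7 days. Median depths in the gates were 12885 and 10719 UMIs for myeloid and 9436 and 6133 UMIs for B barcodes.

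Within single barcodes, arginase and nitric oxide synthase, which compete for arginine, were seen together in a larger share of barcodes at 7 days. Nos2 was found in 8 of 306 barcodes with Arg1 (2.61%) at 3 days and in 91 of 294 (31.0%) at 7 days, while over the whole myeloid gate it was found in 1.27% and 12.1%. Cxcl9 was found in 76 of 306 (24.8%) and 156 of 294 (53.1%) barcodes with Arg1. Ly6c2 was found in 34 of 114 (29.8%) barcodes with Cxcl9 at 3 days and 588 of 780 (75.4%) at 7 days, against 32.5% and 68.9% of the whole gate. So on both days Nos2 was more frequent in barcodes with Arg1 than in the gate, though at 3 days this rested on 8 barcodes. Deeper barcodes hold more of both transcripts, and the part of depth in these pairs was not tested.

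In the T gate, barcodes of a single lineage had higher levels of Ifng, Xcl1, Gzmb and interferon-γ response genes at 7 days. Genes of γδ and interleukin-17-producing T cells were lower in 15 of 21, a direction that held in Y and not in Xist barcodes. Of 5820 genes measured, 74 were higher (1.27%) and 55 lower (0.945%), with a median ratio of 0.042 for 1070 barcodes at 3 days and 718 at 7 days. Over the whole gate, 220 of 5652 were higher (3.89%) and 114 lower (2.02%), with a median of 0.33 that was 0.024 with TMM factors. The counts over the whole gate also turned with the scaling. 65.9% of its calls were higher as CPM, 31.3% with TMM factors, 31.6% with median-of-ratios factors and 55.3% with means of per-barcode CPM. In the single-lineage gate, markers of monocytes and macrophages summed to 1074 CPM at 3 days and 1218 at 7 days, those of plasma cells to 216 and 100, of neutrophils to 94.4 and 31.6, of fibroblasts to 220 and 1.19, of erythroid cells to 463 and 34.5, and of B cells to 3.74 and 3.24. NK cell markers, which include Gzma and Eomes of the cytotoxic list, summed to 314 and 465 CPM there. The part of all these markers in the results was not tested. In all T gate barcodes plasma cell markers stood at 16056 and 3343 CPM.

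Ifng (chr10:118441046-118445892, ENSMUSG00000055170), interferon-γ itself, had 66.0 CPM at 3 days and 295 at 7 days, a ratio of 2.01 (1.87 to 2.15), and 31.8 and 246 CPM over the whole gate. The ratio was 3.27 in Xist and 1.17 in Y barcodes. Over the whole gate, 29 of 206 barcodes with a UMI held 50% of the Ifng UMIs at 3 days and 10 of 254 at 7 days. After thinning, Ifng was seen in 4.86% and 9.89% of single-lineage T barcodes, against 0.17% of B barcodes and 0 of 587 (up to 0.626%). The T barcodes also held more Xcl1, a chemokine for cross-presenting dendritic cells, at 207 and 681 CPM (1.67). Gzmb, granzyme B, had 66.0 and 210 CPM (1.53). Ccl3 and Ccl4, chemokines of activated effector cells, had ratios of 1.69 and 1.40 but opposite signs in the strata, 2.37 and -1.15 for Ccl3 and 3.21 and -0.59 for Ccl4.

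By list, 2 of 21 cytotoxic genes were higher with a median of 0.72, and 10 of 21 genes of type 1 helper and interferon-γ producing cells were higher with a median of 0.68, with 0 lower in both. Among them Hopx had 143 and 343 CPM, Il12rb2, a chain of the interleukin-12 receptor, a ratio of 1.10, and Serpinb9, the granzyme B inhibitor, 57.1 and 176 CPM. Of 13 regulatory T cell genes, 6 were higher and 1 lower. These were Tnfrsf4 (OX40; 59.7 and 251 CPM), Tnfrsf9 (4-1BB; 23.8 and 96.6 CPM), Ctla4 (76.5 and 231 CPM), Ikzf2 (194 and 496 CPM), Foxp3 (11.1 and 32.8 CPM) and Penk, with Capg the lower gene (320 and 153 CPM). Activated conventional T cells also express the first 3 of these. Ctla4 had a ratio of -0.38 and Foxp3 of -0.10 in Xist barcodes, so these 2 were higher in Y barcodes and not in both strata. The activation and checkpoint list had 1 of 20 higher with a median of 0.21, the naive list 0 higher and 1 lower of 14 with a median of -0.33, and the type 2 list 0 of 5 in either direction. The counts over the whole gate were 15 of 21 higher for cytotoxic genes, 12 of 21 for type 1 genes, 7 higher and 1 lower of 12 for regulatory genes, and 4 of 19 higher for activation. Lilr4b, an inhibitory receptor, and Hist1h1b, a histone of dividing cells, were higher too, at 28.4 and 112 CPM and 54.6 and 193 CPM. Hist1h1b was the single gene called of 22 in the cell cycle list, whose median was 0.34. The αβ lineage genes Cd4, Cd8a and Trac had ratios of 0.09, 0.36 and 0.26.

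Genes of interleukin-17-producing and γδ T cells were lower in 15 of 21 members in the single-lineage gate, with a median of -1.42 and 0 higher. Trdc, the δ chain constant gene, had 420 and 151 CPM (-1.42), Tcrg-C1, a γ chain constant gene, 267 and 66.9 CPM (-1.85), and Cd163l1, a scavenger receptor of γδ T cells, 201 and 47.3 CPM (-1.88). Blk, a kinase shared by B cells and γδ T cells, had 113 and 15.2 CPM (-2.29). Il17a had 89.1 and 60.6 CPM (-0.49) and was not called. The direction rested on Y barcodes, with medians of -1.72 in Y and 0.19 in Xist barcodes, and Trdc at -1.72 and 0.78. After thinning, Trdc was seen in 22.1% and 9.33% of barcodes and Cd163l1 in 16.3% and 3.62%, against at most 0.42% in the B gate. Over the whole gate, 2 of 15 members measured were lower and the median was -0.69. γ and δ variable segments, which the list does not hold, summed to 43.0 and 30.4 CPM and to 43.9 and 21.7 CPM.

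**Figure D4:**
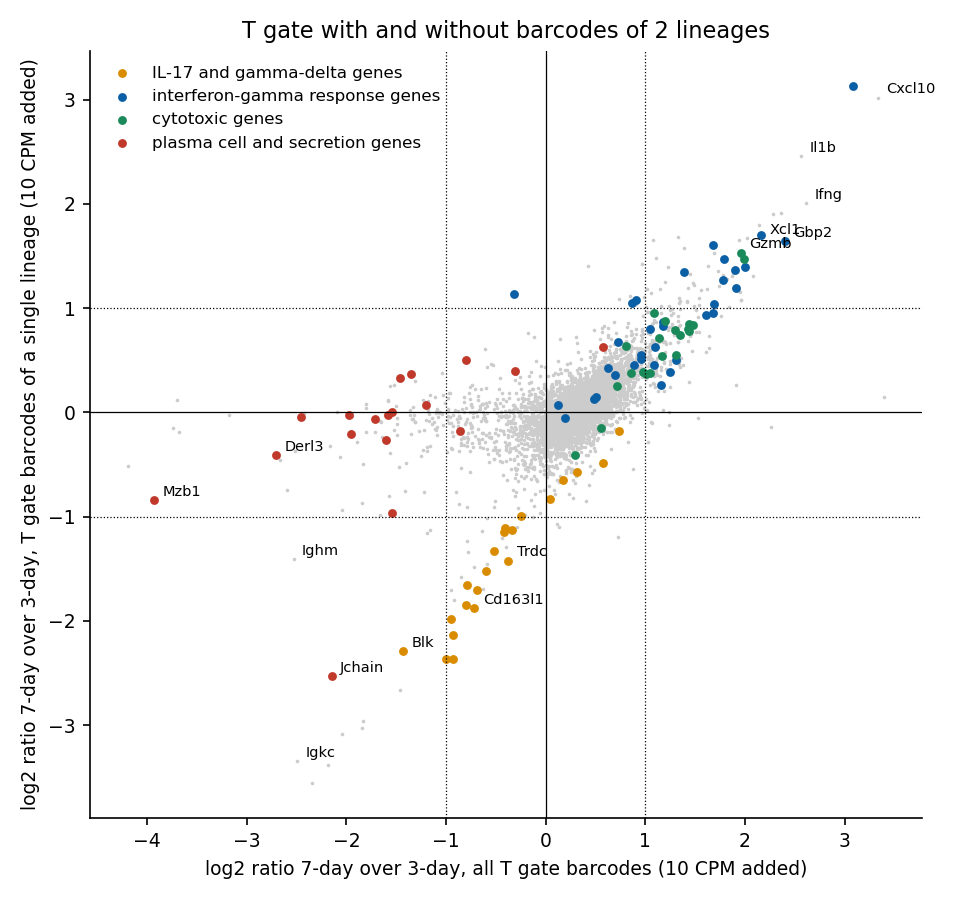
Log2 ratio of 7-day over 3-day WGP (10 CPM added) in all T gate barcodes (x) against T gate barcodes of a single lineage (y) for interleukin-17 and γδ genes (orange), interferon-γ response genes (blue), cytotoxic genes (green) and plasma cell and secretion genes (red), with dotted lines at 1 and -1. Interferon-γ response genes lie mostly above 0 on both axes, while γδ genes such as Trdc, at -0.37 and -1.42, lie further below 0 on the y axis.

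Transcripts of plasma cells led the lower genes over the whole T gate, and stood at far lower levels once barcodes of 2 lineages were left out. Igkc went from 137219 to 24345 CPM over the whole gate and from 984 to 87.7 CPM in single-lineage barcodes. Mzb1, a chaperone of antibody assembly, had 2100 and 129 CPM over the whole gate and 11.2 and 1.88 CPM in single-lineage barcodes. Ighg2c had 172 CPM over the whole gate at 3 days and 0 UMIs at 7 days, where 3 UMIs would be 0.365 CPM. Of the genes called in single-lineage T barcodes and kept by the naming rule, 53 higher and 7 lower had ratios of at least 0.5 in the same direction in both strata. The 7 lower genes were Blk, Cd163l1, Lmo4 (145 and 37.9 CPM), Igfbp4 (138 and 43.9 CPM), Socs2, Tmem64 and Rgcc.

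In the B gate, barcodes of a single lineage had higher levels of 13 of 25 interferon-γ response genes at 7 days and lower levels of 12 of 22 cell cycle genes. Of 4427 genes measured, 40 were higher (0.904%) and 57 lower (1.29%), with a median of 0.01 for 1195 barcodes at 3 days and 587 at 7 days. Over the whole gate, 82 of 4611 were higher (1.78%) and 42 lower (0.911%), with a median of 0.098 that was -0.035 with TMM factors. Higher calls were 66.1% of all calls there as CPM, 51.1% with TMM factors, 52.8% with median-of-ratios factors and 48.5% with means of per-barcode CPM. Myeloid genes led the higher calls over the whole gate and not in single-lineage barcodes, with Lyz2, lysozyme, at 514 and 2043 CPM over the whole gate and at 48.6 and 51.5 CPM in single-lineage barcodes. Barcodes with Csf1r were 3.81% of the B gate at 3 days and 7.53% at 7 days.

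Cell cycle genes were lower in 12 of 22 measured in single-lineage B barcodes and higher in 0, with a median of -1.14. Mki67, a marker of dividing cells, had 156 and 53.0 CPM (-1.40), Top2a, a topoisomerase, 113 and 36.5 CPM (-1.40), and Ube2c, which acts in mitotic exit, 116 and 27.9 CPM (-1.73). Counted over the whole gate, the list had 7 of 21 lower, with a median of -0.87. After thinning, Mki67 was seen in 5.02% of barcodes at 3 days and 1.70% at 7 days. Plasma cell and secretion genes had 1 higher and 3 lower of 18, with a median of -0.60. The higher gene was Slpi, a protease inhibitor, at 159 and 466 CPM. Among the lower, Mzb1 had 3205 and 1343 CPM, Hsp90b1, an endoplasmic reticulum chaperone, 2280 and 1029 CPM. Fkbp11, a folding enzyme of secretory cells outside that list, had 283 and 103 CPM. Jchain, which joins IgM and IgA polymers, differed little in the sum over single-lineage barcodes, at 19230 and 18485 CPM. Over the whole B gate, 896 of 1573 barcodes held it at 3 days and 158 of 677 at 7 days. 131 barcodes held 50% of its UMIs at 3 days and 23 at 7 days. After thinning, it was seen in 37.0% and 13.5% of single-lineage B barcodes, against 8.22% and 0.42% of T barcodes.

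Immunoglobulin constant genes gave 3 higher and 1 lower of 10. Igha, Ighg2b and Ighg2c rested on few barcodes, and the spread of Iglc1 over barcodes was not read. Igha, the IgA heavy chain, had 702 and 3392 CPM, and 2 barcodes in each library held 50% of its UMIs over the whole gate. Ighg2c, an IgG heavy chain, had 724 and 6.27 CPM, with 50% of the 3-day UMIs over the whole gate in 2 barcodes. Ighg2b had 1215 and 3427 CPM and Iglc1, a λ light chain, 2457 and 10238 CPM. Over the whole gate, 2 barcodes held 50% of the Ighg2b UMIs in each library. Ighg2b and Iglc1 had opposite signs in the strata, -6.49 and 2.92 for Ighg2b and -2.45 and 2.56 for Iglc1. Ighm, of IgM, and Igkc had ratios of -0.17 and -0.04. Variable segments of the heavy chain summed to 159 and 412 CPM. The lists of follicular B cells, B-1 cells, MHC class II and MHC class I had 0 genes called in either direction, of 13, 19, 14 and 21 measured. Of 22 immediate early and heat shock genes, Hspa1a (114 and 408 CPM) and Hspa1b were higher and Egr1 (179 and 71.6 CPM) was lower, and Hspa1a had ratios of -0.43 in Xist and 2.27 in Y barcodes. Egr1 and Mki67 were also the 2 lower genes of 16 in the activation and germinal centre list, and Isg20 the lower gene of 12 induced by type I interferon.

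Interferon-γ response genes were higher at 7 days in each gate. In single-lineage B barcodes, 13 of 25 measured were higher with a median of 1.03, in single-lineage T barcodes 14 of 31 with a median of 0.93, and 0 were lower in either. Over the whole gates the counts were 16 of 30 and 21 of 34. The medians in Xist and Y barcodes were 0.78 and 1.04 in the B gate and 0.63 and 1.12 in the T gate. Gbp2 had 14.3 and 105 CPM in single-lineage B barcodes (2.24) and 51.9 and 183 CPM in T barcodes (1.64). Irf1 had a ratio of 1.43 and Socs1 of 1.34 in B barcodes. Of 24 genes measured in all 3 gates over single-lineage barcodes, 9 were higher in 3 gates, 4 in 2 gates and 0 lower in any. Cxcl9, described next, is 1 of those 9. Over the whole gates, 13 of 30 were higher in 3 gates. After thinning, Gbp2 was seen in 1.92% and 10.2% of B barcodes and 4.11% and 14.8% of T barcodes. Cxcl9, in contrast, was seen in 0.09% and 1.11% of T barcodes and 0 of 1195 and 0.85% of B barcodes, which is a background level, so its ratio of 3.13 in T barcodes is read as background.

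**Figure D5:**
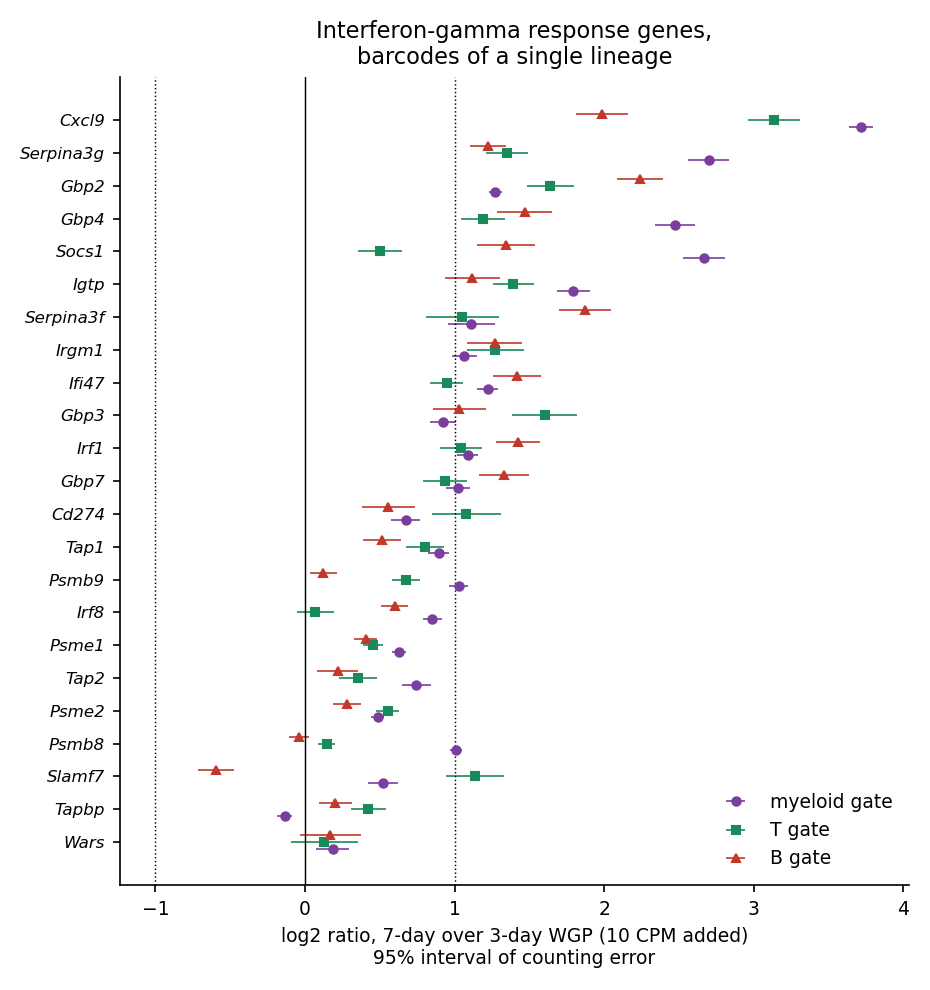
Log2 ratio of 7-day over 3-day WGP (10 CPM added) of 23 interferon-γ response genes measured in all 3 gates, over barcodes of a single lineage, in the myeloid (circle), T (square) and B (triangle) gates, with 95% counting intervals and dotted lines at 1 and -1. No gene lies at or below -1 in any gate, and 8 of the genes plotted lie at 1 or more in each of the 3.

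Over all kept barcodes, the sums followed both the shares of the gates and the levels within them. Of 5746 genes measured, 124 were higher (2.16%) and 75 lower (1.31%), with a median of 0.14, and without barcodes of 2 or more lineages 89 (1.53%) and 72 (1.24%) of 5799. Higher calls were 62.3% of all calls as CPM, 52.1% with TMM factors and 52.6% with median-of-ratios factors. Cxcl9 had 31.0 and 714 CPM (4.14), Cxcl10 26.7 and 550 CPM (3.93) and Gbp2 122 and 567 CPM (2.13). Of 11 plasma cell genes, 7 were lower with a median of -1.57, with Mzb1 at 1593 and 227 CPM, Txndc5, a disulfide isomerase of secretory cells, at 662 and 172 CPM and Jchain at 9845 and 3306 CPM. Jchain had a UMI in 1735 barcodes at 3 days and 399 at 7 days, and 133 and 24 barcodes held 50% of its UMIs. These counts were read without thinning and without a free RNA background. Areg, amphiregulin, and Il5, cytokines of group 2 innate lymphoid cells among others, were seen in 238 and 62 barcodes and in 71 and 4 barcodes. The NK cell list had 0 of 10 called, with a median of 0.66. Acinar genes, which encode digestive enzymes of the exocrine pancreas, were lower in 11 of 12 over all kept barcodes, with a median of -1.19 that was -0.39 in Xist and -0.44 in Y barcodes. Of these, 5 genes summed to 602 and 232 CPM. In the free RNA the same 5 genes stood at 3607 and 6155 CPM, so there the order was the opposite. Sst, somatostatin of islet δ cells, had 92.7 CPM at 3 days and 0 UMIs at 7 days, where 3 UMIs would be 0.0719 CPM, but 1 barcode held 50% of its 4802 UMIs. It was picked out after its values were seen.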

How the data were processed

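Live CD45+ pancreas cells of 1 PBS, 1 3-day WGP and 1 7-day WGP library were measured. Per the labels, the authors used Cell Ranger 3.1.0 with mm10, and Seurat. The deposited matrices hold raw UMI counts of 31053 genes for 6794880 barcodes, before any call of cells. They were read as deposited and filtered at 1000 UMIs and 30% mitochondrial UMIs, which removed 206 and 347 barcodes of the latter kind from the 2 WGP libraries. Counts were summed per gate and scaled to CPM (numpy 2.4.6, scipy 1.17.1). Gene coordinates are from GENCODE M21 and match 30934 genes. Total UMIs kept were 51793608 and 41749724. Scrublet (scanpy 1.11.5) marked 0 and 2 barcodes by its automatic threshold, which is taken as not having worked, and no doublets were removed. TMM factors (edgeR 4.0.16) and median-of-ratios factors (DESeq2 1.42.0) were used only as alternative scalings of the sums, with no test. Free RNA was read from barcodes of at most 100 UMIs. The calculations were tested on simulated data.

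Named genes were the 12 of largest and the 12 of smallest ratio past the size in each population, with a ratio of at least 0.5 the same way in Xist and in Y barcodes. Gate genes, mitochondrial, sex-linked and haemoglobin genes and receptor segments were left out, as were, in the T and B gates, genes under 10% of their free RNA level. List members were named as examples, and a few members that enter the counts are not reported here by name. The single-lineage values in the T and B gates follow the same rule. The comparison, gates and gene lists were chosen with earlier results of these data known.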

Additional observations from a re-analysis of the deposited data

Results flagged for a closer look

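A set of 9 called genes and gene lists stands out for opposite directions in Xist and in Y barcodes, and in each case the difference between the strata was not tested. Others with opposite signs, such as Arg1, Trdc and Ccl4, are given above. In the myeloid gate, the median of the arginase, repair and lipid list was 0.29 in Xist and -1.14 in Y barcodes. Ctsk, a collagen-cleaving cathepsin, had 1.92 and -1.62, and Spp1 had 2.17 and -3.01. In single-lineage T barcodes the interleukin-17 and γδ list had medians of 0.19 and -1.72, and Ccl3 had ratios of 2.37 and -1.15. In single-lineage B barcodes the immunoglobulin constant list had medians of -1.88 and 0.47, Ighg2b ratios of -6.49 and 2.92, Iglc1 of -2.45 and 2.56, and Slpi, a protease inhibitor of mucosal cells, of -3.18 and 1.496. The 3-day library held the fewer Xist barcodes, with 87 in its myeloid gate.

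Barcodes of at least 500 but under 1000 UMIs, which the filter leaves out, also differed between libraries in Jchain. Jchain made up over 0.5% of UMIs in 94 of 239 such barcodes (39.3%) at 3 days, against 4 of 197 (2.03%) in PBS. At 7 days it did so in 0 of 250, with an upper limit of 1.46% (exact binomial). Igkc stood at 57546 CPM in these shallow barcodes at 3 days and 1205 CPM at 7 days. In the free RNA, the 11 plasma cell genes summed to 87552 CPM at 3 days and 30929 CPM at 7 days. The part of free RNA in the Jchain shares was not tested.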

How the results depend on the processing

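No paired analysis was possible because each day had 1 library. Over all alternatives, 22 of the gate share results moved by less than their counting interval and 14 by more, 113 gene counts stayed within 1.5 times and 47 did not, and of the values for named genes 1819 stayed past the size the same way, 99 fell short of it and 2 reversed. The cause of these moves was not tested, other than that Xist and Y settings hold fewer barcodes. Named genes were picked for a ratio of at least 0.5 the same way in Xist and in Y barcodes. They could therefore not reverse in those settings. Settings that change only the gates also leave the values over all kept barcodes as they were. The count for named genes is thus partly fixed by how they were chosen.

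For the share of barcodes in the myeloid gate, the log2 ratio was 1.45 without barcodes over 10000 UMIs, 1.46 in Xist and 0.71 in Y barcodes. For the share of barcodes in the T gate it was -0.37 without barcodes in more than 1 gate, -0.42 without those of 2 lineages, -0.41 with gates read after thinning, -0.88 in Xist and -0.45 in Y barcodes. For the share of barcodes in the B gate it was -0.44 without barcodes over 10000 UMIs, -0.85 without those in more than 1 gate, -0.87 without those of 2 lineages, -0.74 after thinning, -1.68 in Xist and -0.84 in Y barcodes.

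Over all kept barcodes, the 124 higher genes became 81 without barcodes in more than 1 gate, 297 in Xist barcodes, 200 with 1 CPM added and 50 with 50 CPM added, and the 75 lower genes became 169, 118 and 25 in the last 3 settings. In the myeloid gate, 73 higher became 142 in Xist barcodes and 31 with 50 CPM added, and 130 lower became 266 without barcodes over 10000 UMIs, 253 in Xist barcodes, 213 with 1 CPM and 49 with 50 CPM added. In the T gate, 220 higher became 72 without barcodes over 10000 UMIs, 73 without those in more than 1 gate, 74 without those of 2 lineages, 88 after thinning, 91 in Xist and 394 in Y barcodes, 93 with TMM, 94 with median-of-ratios factors and 94 with per-barcode means, 393 with 1 CPM and 67 with 50 CPM added. Its 114 lower became 68 without barcodes over 10000 UMIs, 52 without those in more than 1 gate, 55 without those of 2 lineages, 73 after thinning, 47 in Xist barcodes, 204 with TMM, 203 with median-of-ratios factors and 49 with 50 CPM added. In the B gate, 82 higher became 29 without barcodes over 10000 UMIs, 50 without those in more than 1 gate, 40 without those of 2 lineages, 32 after thinning, 235 in Xist barcodes, 48 with per-barcode means, 159 with 1 CPM and 18 with 50 CPM added, and 48 with a low filter of 50 CPM. Its 42 lower became 24 without barcodes over 10000 UMIs, 93 after thinning, 249 in Xist barcodes, 64 with TMM, 73 with 1 CPM and 12 with 50 CPM added.

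With gates read after thinning, 2 ratios reversed, at 2.42 for Igkc, myeloid gate, and -0.045 for Igha, B gate. Mzb1 was seen in 2.41 percentage points more B barcodes at 7 days without thinning, and after it in 54.9% at 3 days and 45.3% at 7 days. The medians of the glucan sensing and Ly6C-low lists in the myeloid gate lay within 0.1 of 0 and changed sign with the scaling. One library per day, from an unstated number of mice, is the limit on every difference given here.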
